A study of Mus musculus with 6 samples.

Results

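The Ikaros family of zinc finger transcription factors was followed in T cells that had been grown in mice from pluripotent stem cells. Its members were taken by name as the rows Ikzf1, Ikzf2, Ikzf3, Ikzf4 and Ikzf5, which are 5 of the 23420 gene rows in the expression table. They encode Ikaros, Helios, Aiolos, Eos and Pegasus, in that order. The 6 libraries came from 3 sorts of CD4 single-positive (CD4SP) and 3 sorts of CD8 single-positive (CD8SP) induced T (iT) cells, each of 1000 cells from spleen. The donor cells were mouse embryonic stem cells of C57BL/6 background with a doxycycline-inducible Runx1-p2a-Hoxa9 cassette in the Rosa26 locus (iR9 cells), which were turned into blood progenitors in culture with doxycycline and then transplanted. The recipients in both groups were irradiated adult B-NDG mice, a NOD strain with the Prkdc scid mutation and without Il2rg, so the T cells grew in a host that lacks T, B and NK cells of its own. The cassette encodes no member of the family. Both groups derive from the same modified cell line, and no T cells of ordinary origin are among these libraries. The study describes each library as a biological replicate, but the labels do not say whether these came from separate mice, so p-values measure the spread between these samples.

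Ikaros factors bind DNA through zinc fingers near the amino end of the protein and pair with each other through a second set of fingers at the carboxyl end. Several members recruit the NuRD nucleosome remodelling and deacetylase complex to their target genes and can either repress or maintain them. In the T lineage, Ikaros is present from early progenitors onwards, Aiolos accompanies later maturation, and Helios and Eos are known from regulatory T cells, in which Eos acts as a corepressor with Foxp3. Pegasus is the most distant member and binds a different DNA sequence. Splicing of these genes can leave out the DNA-binding fingers. A gene level sums all such isoforms.

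The sequence of the second DNA-binding finger is shown first because it is a stretch of the DNA-binding domain that the 4 closest members share. It is written 5′ to 3′ on the coding strand, with the codons of the 2 cysteines and 2 histidines that hold the zinc ion in capitals.
Ikzf1: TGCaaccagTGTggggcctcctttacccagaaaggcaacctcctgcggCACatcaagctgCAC
Ikzf2: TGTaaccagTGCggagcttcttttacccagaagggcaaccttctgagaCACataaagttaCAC
Ikzf3: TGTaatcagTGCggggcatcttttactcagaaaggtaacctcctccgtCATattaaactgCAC
Ikzf4: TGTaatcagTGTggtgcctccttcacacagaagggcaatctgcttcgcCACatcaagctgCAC
These 63 bases lie in exon 5 of the principal transcript in each gene, at chr11:11754024-11754086 on the plus strand for Ikzf1, chr1:69570581-69570643 on the minus strand for Ikzf2, chr11:98488940-98489002 on the minus strand for Ikzf3 and chr10:128640229-128640291 on the minus strand for Ikzf4 (GRCm38, the assembly called mm10, with GENCODE M21 annotation). All 4 encode the same 21 residues. Against Ikzf1, 51 of the 63 bases were identical in Ikzf2, 51 in Ikzf3 and 53 in Ikzf4, so the genes differ in codons that leave this finger unaltered. The closest finger of Ikzf5 matched at 6 of 21 residues. Among annotated protein-coding transcripts, 4 of 6 of Ikzf1, 5 of 7 of Ikzf2, 1 of 1 of Ikzf3 and 3 of 3 of Ikzf4 hold this stretch.

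The principal transcripts encode proteins of 515 residues for Ikzf1, 526 for Ikzf2, 507 for Ikzf3, 586 for Ikzf4 and 419 for Ikzf5. A search of those proteins for the cysteine and histidine spacing of a zinc finger found 6 fingers in each of the first 4 and 5 in Ikzf5. The longest stretch of identical bases shared by transcripts of any 2 members was 32 bases, between Ikzf2 and Ikzf4, and the shortest such maximum was 15 bases.

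Levels are given as TPM, a unit in which reads are divided by gene length and scaled to the same total in each library, so levels of different genes can be set side by side. Fold changes are differences of log2(TPM + 1), on which the change of a low gene comes out too small, and positive values mean higher in CD4SP. A gene was called when its limma adjusted p was under 0.05 and its change was over 2-fold. Of the 10476 genes that reached 1 TPM in at least 3 libraries, 9.73% were called, 7.92% as higher in CD4SP and 1.80% as higher in CD8SP. All 5 members passed this filter. Ikzf4 was under 1 TPM in CD8SP replicate 3 and so passed with the help of the CD4SP libraries, where it is high, but it was also called with no filter (limma adjusted p = 0.00275).

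Both populations matched their labels, with Cd4 at 279 to 331 TPM in CD4SP and at most 0.104 TPM in CD8SP libraries, and Cd8a at 1038 to 1161 TPM in CD8SP and at most 2.93 TPM in CD4SP libraries. Cd8b1 was at 2197 to 2401 TPM in CD8SP and was also read in CD4SP libraries, at 24.3 to 36.0 TPM. Ribosomal protein genes took 24.2% to 28.8% of TPM in CD4SP and 32.2% to 36.0% in CD8SP libraries, and the median log2 fold change over all tested genes was 0.28 rather than 0. Median-of-ratios rescaling of the libraries brought this median to 0. Of the markers of other cells that the gate could hold, Pax5 and Ms4a1 (B cells) and S100a8 and S100a9 (granulocytes) had 0 TPM throughout. The 6 myeloid genes summed to 17.1 to 31.3 TPM in CD4SP and 3.64 to 8.66 TPM in CD8SP libraries, nearly all from Lyz2, the only 1 of them that was tested and which was called as higher in CD4SP (log2 fold change 1.68, limma adjusted p = 0.00872). The 5 NK cell genes summed to 0.682 to 6.59 TPM in CD4SP and 6.15 to 9.44 TPM in CD8SP libraries, with Ncr1 at 0 throughout. Klrb1c (NK1.1), the only NK cell gene that passed the filter, ranged from 0.682 to 1.82 TPM in CD4SP and from 5.23 to 9.14 TPM in CD8SP libraries. It was called as higher in CD8SP (log2 fold change -1.86, limma adjusted p = 0.00426). Being under 1 TPM in CD4SP replicate 2, Klrb1c passed with the help of the CD8SP libraries, where it is high, so its call is no independent support. With the ribosomal protein genes removed and TPM rescaled, the log2 fold change was 2.70 for Ikzf2, 2.36 for Ikzf4, -0.76 for Ikzf3, 0.33 for Ikzf1 and 0.59 for Ikzf5. The part of the myeloid and NK cell genes in the family's differences was not tested. In bulk libraries, fewer cells of a type and less RNA per cell cannot be told apart.

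All 5 members were read in all 6 libraries, and their proportions differed between the 2 populations. Ikzf2 and Ikzf4 were higher in CD4SP iT cells by about 8-fold in mean TPM, Ikzf3 was higher in CD8SP iT cells by 1.52-fold, and Ikzf1, the most abundant member in all 6 libraries, differed by 1.43-fold. Of the 5 members, 2 were called, both as higher in CD4SP, as were 7.92% of all tested genes. With no fold threshold, 3 members passed the adjusted p, namely these 2 and Ikzf3, as did 20.8% of all tested genes. The CD4SP libraries lay above all CD8SP libraries for 4 members, as for 36.6% of tested genes, and the CD8SP libraries lay above for 1 member, as for 6.61%. Non-overlap with CD4SP above was therefore common over the whole table, and non-overlap in the other direction was not.

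**Figure D1:**
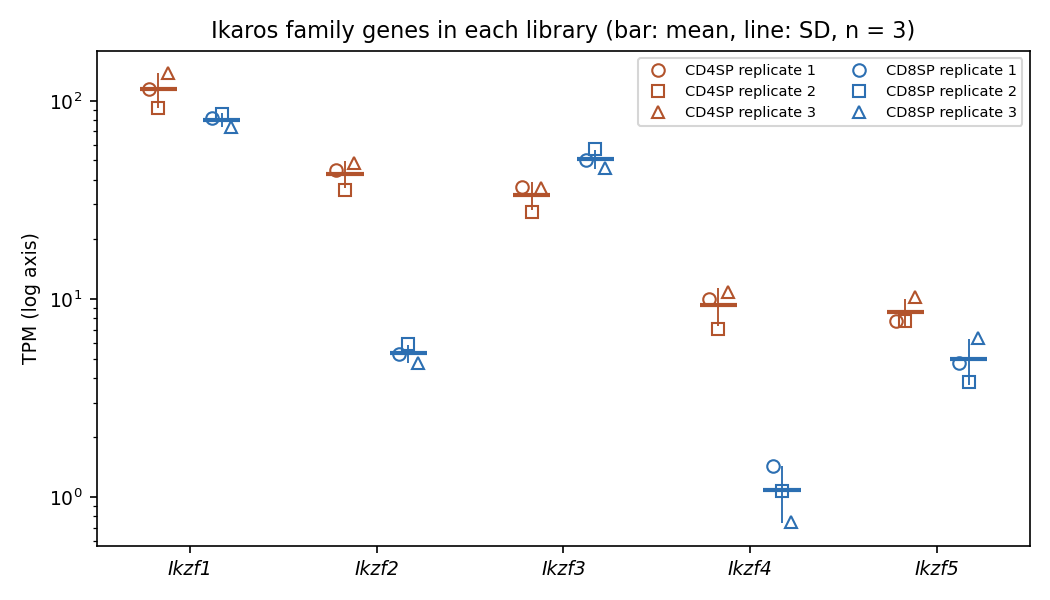
TPM on a log axis of each of the 5 Ikaros family genes, with 1 point per library, a bar at the mean and a line for the SD (n = 3 per population). Ikzf2 and Ikzf4 show the widest gaps between populations, Ikzf3 is the member with CD8SP above CD4SP, and the populations overlap for none of the 5.

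Ikzf2 encodes Helios, which is known from regulatory T cells and from T cells after repeated stimulation. It lies at chr1:69531214-69687245 on the minus strand. Its level was 44.9, 35.6 and 48.3 TPM in CD4SP replicates 1 to 3, against 5.28, 5.89 and 4.76 TPM in CD8SP replicates 1 to 3. The lowest CD4SP library was thus 6.05 times the highest CD8SP library. The log2 fold change was 2.79 (SE 0.19, 95% confidence interval 2.37 to 3.22, limma adjusted p = 5.41e-05). Its mean level stood above 69.7% of tested genes in CD4SP iT cells and above 26.1% in CD8SP iT cells. A block for the replicate number gave a limma adjusted p of 0.000261.

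Ikzf4 encodes Eos, the Foxp3 corepressor, at chr10:128630843-128645991 on the minus strand. In CD4SP replicates 1 to 3 it stood at 9.97, 7.02 and 10.9 TPM, and in CD8SP replicates at 1.43, 1.07 and 0.746 TPM. All CD4SP libraries were high, and the lowest of them was 4.89 times the highest CD8SP library. The log2 fold change was 2.30 (SE 0.26, 95% confidence interval 1.70 to 2.90, limma adjusted p = 0.000857). Because its CD8SP level was close to the pseudocount of 1, this value corresponds to 4.92-fold, whereas the ratio of mean TPM was 8.58. With a pseudocount of 0.1, the log2 fold change of Ikzf4 was 3.01. In CD8SP iT cells Ikzf4 was near the bottom of the tested genes, above 4.62% of them, and in CD4SP iT cells it was above 31.3%.

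Ikzf3 encodes Aiolos, a factor of lymphocyte maturation that is also known to silence Il2 in some helper T cells, and lies at chr11:98464902-98546031 on the minus strand. It had 36.6, 27.4 and 36.5 TPM in the CD4SP libraries and 50.3, 56.9 and 45.9 TPM in the CD8SP libraries. It was the member with all CD8SP libraries above all CD4SP libraries. The log2 fold change was -0.60 (SE 0.17, 95% confidence interval -0.98 to -0.22, limma adjusted p = 0.0372), which passed on the adjusted p and was under 2-fold. This p was close to the threshold. It was 0.0573 to 0.143 with any single library other than CD4SP replicate 2 left out and 0.0385 without that library, while the log2 fold change stayed between -0.67 and -0.47. It was also over 0.05 with no mean-variance trend (0.0584), with CD8SP replicates 1 and 2 averaged (0.124) and with the replicate block (0.0772), where the log2 fold change was -0.60, -0.57 and -0.60. Relative to the median of all tested genes the difference was larger, at -0.89, and median-of-ratios rescaling gave -0.90 (limma adjusted p = 0.00211).

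Ikzf1 encodes Ikaros, the founding member, required for lymphocyte development, and lies at chr11:11685003-11772926 on the plus strand. Its TPM was 115, 91.5 and 138 in CD4SP replicates 1 to 3 and 81.9, 85.7 and 73.5 in CD8SP replicates 1 to 3. CD4SP replicate 2 was only slightly above the highest CD8SP library. The log2 fold change was 0.49 (SE 0.17, 95% confidence interval 0.11 to 0.87) and was not called (limma adjusted p = 0.0682). Against the shift of all genes it came to 0.21, and after median-of-ratios rescaling it was 0.19 (limma adjusted p = 0.326). Without CD4SP replicate 2 it was 0.64 (limma adjusted p = 0.0142). Ikzf1 ranked above 88.2% of tested genes in CD4SP and 85.3% in CD8SP iT cells, so that it was among the abundant transcripts of both.

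Ikzf5 encodes Pegasus, at chr7:131388652-131410521 on the minus strand. The 3 CD4SP values were 7.76, 7.77 and 10.2 TPM, and the 3 CD8SP values were 4.72, 3.79 and 6.35 TPM. The groups did not overlap, with a gap between 6.35 and 7.76 TPM. The log2 fold change was 0.70 (SE 0.24, 95% confidence interval 0.15 to 1.25) and was not called (limma adjusted p = 0.072). Relative to the median of all tested genes it was 0.42, and quantile normalization gave 0.33 (limma adjusted p = 0.411). Genes next to Ikzf5 on the opposite strand were checked because strand use in counting is not stated. Pstk overlaps its 3′ end and ranged from 58.8 to 87.3 TPM in CD4SP and from 46.3 to 64.1 TPM in CD8SP libraries (0.42 on the log2 scale, limma adjusted p = 0.144). Acadsb lies beside its start and ranged from 4.52 to 6.93 TPM and from 2.50 to 2.77 TPM (0.96, limma adjusted p = 0.0264). Reads of Ikzf5 and of these neighbours cannot be told apart where they overlap.

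**Figure D2:**
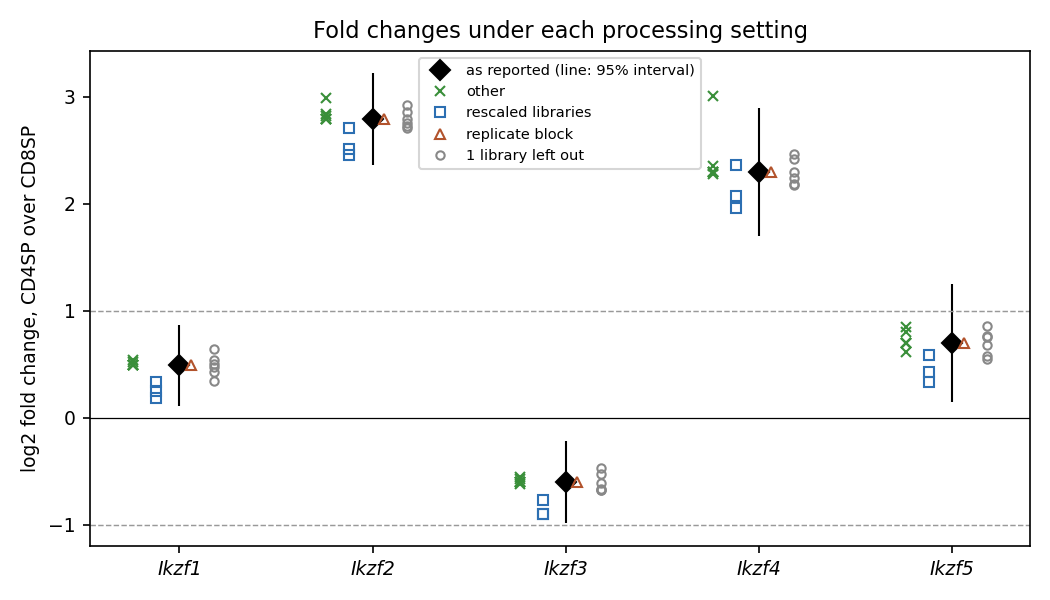
Log2 fold change of each Ikaros family gene, CD4SP over CD8SP, under the reported processing and under each alternative, including each library left out. Ikzf2 and Ikzf4 stayed far above 0 (1.96 or more), Ikzf3 stayed below 0 (-0.90 to -0.47), and Ikzf1 and Ikzf5 stayed above 0 but came down to 0.19 and 0.33.

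The composition of the family was examined next, because the share of a member in the family's summed TPM does not depend on how a library as a whole is scaled. The summed TPM of the 5 genes was 214, 169 and 244 in CD4SP and 144, 153 and 131 in CD8SP libraries. These sums did not overlap (exact two-sided permutation p = 0.1). That p is the smallest that 3 libraries against 3 can give, here and for the shares. Ikaros itself made up more than any other member in each library, with Ikzf1 at 54.7% ± 1.57 (SD, n = 3) of the sum in CD4SP and 56.3% ± 0.632 (SD, n = 3) in CD8SP iT cells, and the difference of -1.57 percentage points was within the spread between libraries (exact permutation p = 0.3).

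The populations parted in the remainder. Ikzf2 made up 21.0%, 21.0% and 19.8% of the sum in the CD4SP libraries and 3.68%, 3.84% and 3.63% in the CD8SP libraries. Ikzf3 went the other way, at 17.1%, 16.2% and 15.0% in CD4SP and 35.0%, 37.1% and 35.0% in CD8SP libraries. The mean difference was 16.9 percentage points for Ikzf2 and -19.6 for Ikzf3, and neither group overlapped the other (exact permutation p = 0.1 for each). The Helios and Aiolos shares thus differed in opposite directions and by similar amounts. The shares of the 5 genes add up to the whole, so they are not independent of each other. Ikzf4 took 4.42% ± 0.261 (SD, n = 3) of the sum in CD4SP and 0.755% ± 0.221 (SD, n = 3) in CD8SP iT cells (exact permutation p = 0.1). Ikzf5 took 4.14% ± 0.485 (SD, n = 3) and 3.53% ± 1.20 (SD, n = 3), and the difference of 0.609 percentage points was within the spread between libraries (exact permutation p = 0.5).

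**Figure D3:**
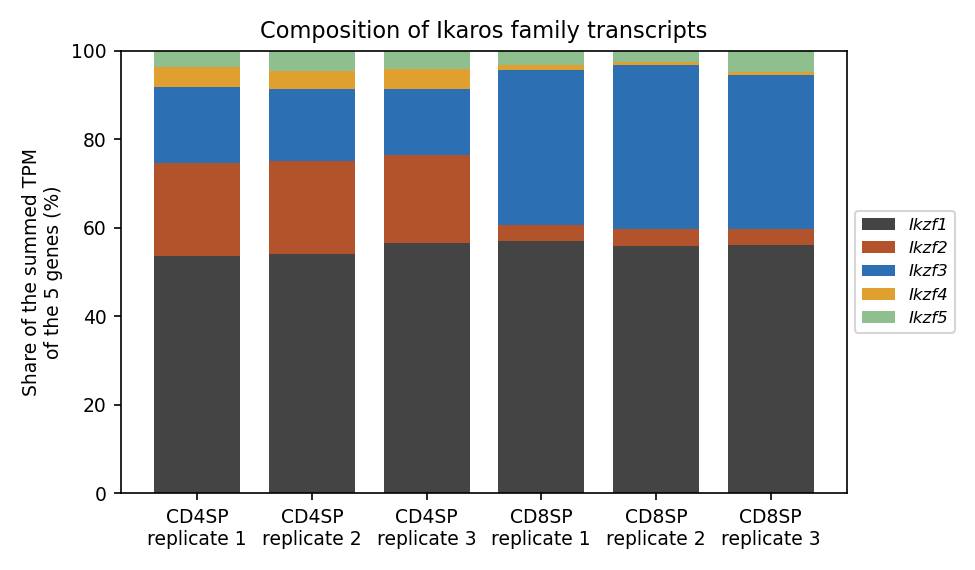
Share of each Ikaros family gene in the summed TPM of the 5 genes, as stacked bars in percent for each library. The Ikzf1 segment is the tallest in all 6 bars (53.6% to 57.0%), the Ikzf2 segment is 19.8% to 21.0% in CD4SP and 3.63% to 3.84% in CD8SP, and the Ikzf3 segment is 15.0% to 17.1% in CD4SP and 35.0% to 37.1% in CD8SP.

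Ratios between members within a library gave the same picture in other units. There were 1.23 to 1.33 Ikzf2 transcripts for each Ikzf3 transcript in CD4SP libraries and 0.103 to 0.105 in CD8SP libraries. For each Ikzf2 transcript, 2.55 to 2.85 Ikzf1 transcripts were present in CD4SP and 14.6 to 15.5 in CD8SP libraries. Each of these ratios was clear of overlap between the populations. The ratio of Ikzf2 to Ikzf4 was 4.45 to 5.07 in CD4SP and 3.68 to 6.39 in CD8SP libraries, so that Helios and Eos transcripts kept overlapping proportions to each other although both differed by population. The ratio of Ikzf4 to Ikzf5 was 0.903 to 1.29 in CD4SP and 0.118 to 0.304 in CD8SP libraries.

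The order of levels also differed. In CD4SP iT cells it was Ikzf1, Ikzf2, Ikzf3, Ikzf4 and Ikzf5 by mean TPM, in which the ranges of Ikzf2 and Ikzf3 overlapped over libraries, as did those of Ikzf4 and Ikzf5. Ikzf2 was nevertheless above Ikzf3 in each CD4SP library. In CD8SP iT cells the order was Ikzf1, Ikzf3, Ikzf2, Ikzf5 and Ikzf4, where the ranges of Ikzf2 and Ikzf5 overlapped. Among CD4SP libraries, replicate 2 had the lowest value of Ikzf1, Ikzf2, Ikzf3 and Ikzf4. The coefficient of variation was 15.4% to 21.7% over the members in CD4SP and 7.78% to 31.8% in CD8SP iT cells, highest in the low member Ikzf4.

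Ikzf2 and Ikzf4 were set beside regulatory T cell genes, since both factors are known from those cells. These genes were listed with earlier results of these data known. Of 10 such genes, 9 were called as higher in CD4SP iT cells, as were 7.92% of all tested genes, and the median log2 fold change was 2.89 over the list beside 0.28 over all tested genes. Among the 9, Gpr83 was listed at 0 and Lrrc32 stood at 0.912 to 1.16 TPM in CD8SP libraries, so both passed the filter through the CD4SP libraries, where they are high, and their calls are no independent support. Without these 2, a choice made after seeing the data, 7 of 8 were called and the median was 2.63. Foxp3, the factor that defines regulatory T cells, had 142, 6.56 and 167 TPM in the CD4SP replicates and 7.48, 7.48 and 10.1 TPM in those of CD8SP. CD4SP replicate 2 was thus below every CD8SP library for Foxp3, which was not called (log2 fold change 2.61, limma adjusted p = 0.1) unless that library was left out (4.06, limma adjusted p = 8.67e-05), the libraries were weighted (0.00153) or the replicate block was used (0.0438). The same library held 35.6 TPM of Ikzf2 and 7.02 TPM of Ikzf4, both above all CD8SP libraries, as were its 1157 TPM of Tnfrsf4 (OX40) and 92.0 TPM of Il2ra (the IL-2 receptor alpha chain). The gap in Foxp3 in this library therefore had no counterpart of like size in either Ikaros family gene.

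**Figure D4:**
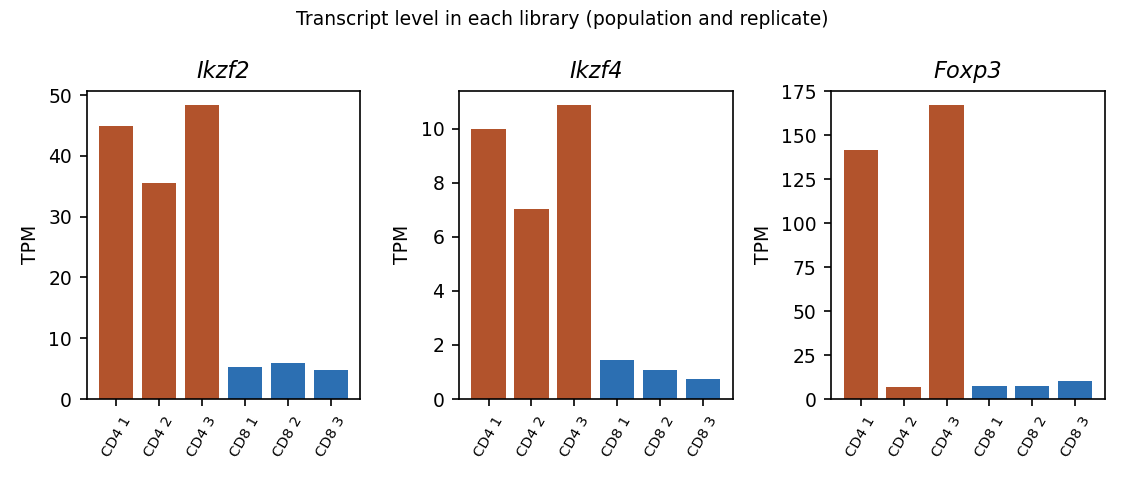
TPM of Ikzf2, Ikzf4 and Foxp3 in each library as bars from 0, coloured by population. In CD4SP replicate 2, Foxp3 is at 6.56 TPM, below the CD8SP libraries, while Ikzf2 is at 35.6 TPM and Ikzf4 at 7.02 TPM, well above them.

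The proteins with which Ikaros factors work were described from lists. None of the 13 subunits of NuRD was called by limma, against 9.73% of all tested genes. An unadjusted limma p under 0.05 was reached by 4 of the 13 and by 37.1% of all tested genes. The median log2 fold change of the subunits was 0.34 beside 0.28 over all tested genes. Chd4, the remodelling ATPase best known as the Ikaros partner, had 25.6, 24.7 and 26.0 TPM in the CD4SP replicates and 19.7, 19.5 and 19.3 TPM in those of CD8SP. Its log2 fold change of 0.37 was not called (limma adjusted p = 0.105). Its relative Chd3 had 42.3 to 44.9 TPM and 26.4 to 29.2 TPM in the respective populations, a log2 fold change of 0.63 that passed on the adjusted p alone (limma adjusted p = 0.0136). The methyl-DNA-binding subunit Mbd2 did so as well (0.51, limma adjusted p = 0.0285). The lowest member of the list was Mta3, at -0.20. The list as a whole thus lay close to the shift of all tested genes.

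Of 10 other corepressors and remodellers, 9 were tested and limma called 0, against 9.73% of all tested genes. An unadjusted limma p under 0.05 was reached by 2 of the 9 and by 37.1% of all tested genes. The median log2 fold change of the list was 0.31 beside 0.28 over all tested genes. Ctbp1, a corepressor that binds Ikaros, had 0.42 (limma adjusted p = 0.0597), and Sin3a, a scaffold of deacetylase complexes, had 0.53 (limma adjusted p = 0.0838). The nuclear receptor corepressor Ncor1 varied within a population, at 49.1, 13.4 and 25.6 TPM in CD4SP against 13.7 to 14.8 TPM in CD8SP libraries. It was called as higher in CD4SP when CD4SP replicate 2 was left out (1.27, limma adjusted p = 0.0155) or the libraries were weighted (1.14, limma adjusted p = 0.0104). The 5 genes of the cereblon ubiquitin ligase, through which thalidomide-class drugs direct the breakdown of human Ikaros and Aiolos, gave 0 calls with limma. Their median log2 fold change was 0.37. Over all tested genes, 9.73% were called and the median was 0.28. While 37.1% of all tested genes reached an unadjusted limma p under 0.05, 1 of the 5 did. That gene was Crbn, the substrate receptor, with 94.3, 70.1 and 98.9 TPM in the CD4SP replicates and 58.0, 58.3 and 63.5 TPM in those of CD8SP. Its log2 fold change was 0.53 (limma adjusted p = 0.0463).

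Genes that Ikaros family factors are known to act on were listed next. Of 15, 10 were tested and 3 were called, each as higher in CD4SP iT cells, as were 7.92% of all tested genes. The median log2 fold change was 0.41, beside 0.28 over all tested genes. Il2, the T cell growth factor, had 11.0, 17.7 and 11.1 TPM in the CD4SP replicates and 3.45, 3.37 and 1.02 TPM in those of CD8SP. This came to 2.04 on the log2 scale (limma adjusted p = 0.00593). Il2 was thus higher where Ikzf2 was higher and Ikzf3 lower, which is a description of the same 6 libraries and not a test of a link between them.

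Prdm1, which encodes the repressor Blimp-1, ranged from 12.9 to 13.6 TPM in CD4SP libraries and from 3.59 to 3.95 TPM in CD8SP, which is 1.59 on the log2 scale (limma adjusted p = 0.000998). Bcl6, the factor that opposes Blimp-1, was low in both, at 2.04 to 3.16 TPM and 0.326 to 0.676 TPM, which is 1.24 on that scale (limma adjusted p = 0.0174). Being under 1 TPM in every CD8SP library, Bcl6 passed the filter only through the group where it is high, so its call is no independent support. Without it, also a choice made after seeing the data, 2 of 9 were called and the median was 0.34. The Bcl6 call was lost when any CD8SP library was left out, with limma adjusted p of 0.0503 to 0.08, with CD8SP replicates 1 and 2 averaged (0.0612) and with quantile normalization (0.91, limma adjusted p = 0.0852), and Bcl6 could not be tested without any 1 of the CD4SP libraries because it then failed the filter. Notch1, a receptor whose target genes Ikaros restrains in thymocytes, passed on the adjusted p alone (0.65, limma adjusted p = 0.0371), and the Notch-induced gene Dtx1 did not pass (0.48, limma adjusted p = 0.0618). Hes1 and Notch3 were listed at 0 in all libraries. Ifng and its activator Tbx21 had log2 fold changes of -0.27 (limma adjusted p = 0.144) and 0.02 (limma adjusted p = 0.956), and neither was called.

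**Figure D5:**
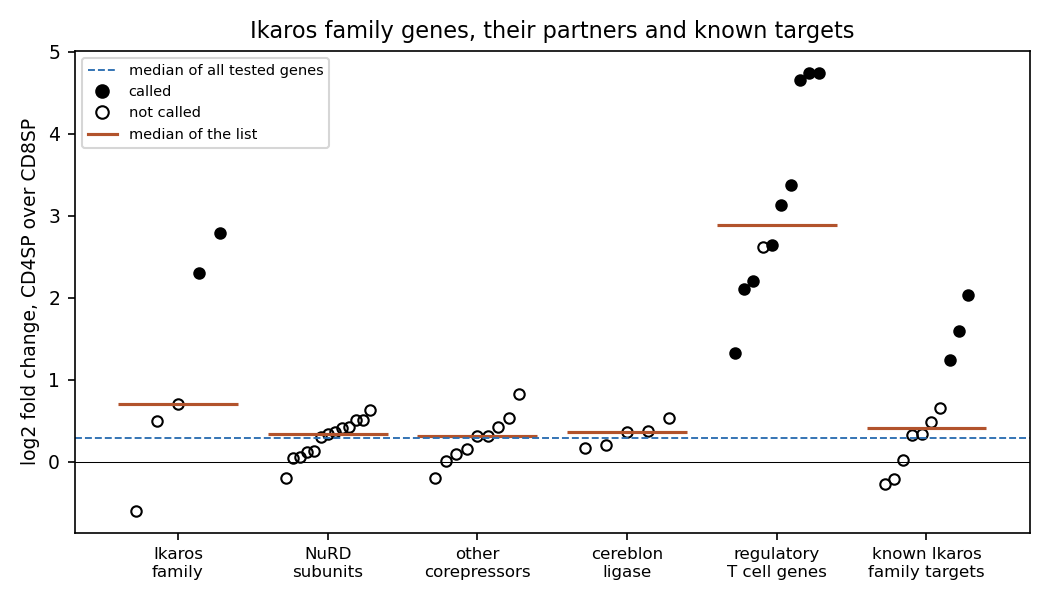
Log2 fold change, CD4SP over CD8SP, of the Ikaros family genes and of each tested gene of 5 lists, with a point per gene. The NuRD subunits lie between -0.20 and 0.63, around the median of all tested genes (0.28). Ikzf2 (2.79) and Ikzf4 (2.30) lie within the range of the regulatory T cell genes, whose median is 2.89. Without Gpr83 and Lrrc32, which passed the filter through the CD4SP libraries, that median is 2.63. The lists were chosen with earlier results of these data known.

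Genes whose levels went most like those of each member were named by Pearson r of log2(TPM + 1) over the 6 libraries, which share the 2 populations, so that any gene separating the populations reaches a high r. The 3 genes most like Ikzf2 were Ephx1, Glb1 and Dusp1 (r = 0.999 for each), and those most like Ikzf4 were Setd3, Slamf1 and Ubl3 (r = 0.999 for each). Ikzf2 and Ikzf4 had r = 0.99 with each other, and Ikzf4 ranked 89 among the genes most like Ikzf2. Ikzf1 was most like Slc9a9 (0.998), Morf4l1 (0.997) and Mmgt1 (0.997), Ikzf3 was most like Enho (0.996), Hmga1 (0.994) and Relt (0.993), and Ikzf5 was most like Zfp217 (0.994), Zbtb11 (0.991) and Inppl1 (0.989). Within the family, Ikzf3 was the member with negative r to each of the others, from -0.83 with Ikzf2 to -0.46 with Ikzf1. With Foxp3, r was 0.90 for Ikzf1, 0.73 for Ikzf2, -0.31 for Ikzf3, 0.76 for Ikzf4 and 0.71 for Ikzf5, and Foxp3 ranked only 4047 among the genes most like Ikzf2.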

How the data were processed

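RNA of 1000 sorted spleen T cells per library was amplified with a whole-transcriptome kit and made into libraries with a transposase kit. The authors aligned reads with HISAT2 to mm10, estimated expression with StringTie and deposited gene-level TPM, with bcl2fastq and SAMtools also named in the submitters' processing notes. Strand use and the treatment of reads that match several genes are not given in the sources used here. TPM keeps no depth, so the depth per library is unknown and no interval or floor from counts could be given. An exact 0 can be a failed estimate.

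The sample titles gave the group and the replicate number. Genes reaching 1 TPM in 3 or more libraries were tested on log2(TPM + 1) in R 4.3.3 by limma 3.58.1, using lmFit and trended eBayes, with population as the only term and Benjamini-Hochberg adjustment over 10476 genes. No count test was run because TPM are not counts. Shares were tested with an exact two-sided permutation test over samples. The script was tested on simulated data. Alternatives were another pseudocount (0.1), no filter or 5 TPM, median-of-ratios rescaling, quantile normalization and removal of ribosomal protein genes. Further ones were no trend, library weights, a replicate block, averaging CD8SP replicates 1 and 2, no fold threshold, and each library left out. Ribosomal protein genes took 32.6%, 32.2% and 36.0% of TPM in CD8SP replicates 1 to 3, so replicates 1 and 2 were close in this. They were not closest in Ikzf3, at 50.3, 56.9 and 45.9 TPM. The labels do not say whether replicates 1 and 2 are independent samples. If they are not, the spread within CD8SP is understated. Named genes were the members, up to 6 genes of each list (those called, then those with the largest change), the 3 most alike genes per member, and Cd4, Cd8a, Cd8b1 and Foxp3. Mta3, Ifng, Tbx21, Hes1, Notch3, marker genes of other cells and neighbours of Ikzf5 were named after their values were seen. The members and lists were chosen with earlier results of these data known. Sequences and positions were read from the GRCm38 assembly with GENCODE M21 annotation. Further sequences are not reported here.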

Additional observations from a re-analysis of the deposited data

How the results depend on the processing

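All 5 members kept the direction of their difference and their side of the combined threshold under the 16 alternatives tried for each. The log2 fold change ranged from 0.19 to 0.64 for Ikzf1, 2.46 to 2.99 for Ikzf2, -0.90 to -0.47 for Ikzf3, 1.96 to 3.01 for Ikzf4 and 0.33 to 0.86 for Ikzf5, and the limma adjusted p ranged from 5.75e-06 to 0.000731 for Ikzf2 and from 0.000178 to 0.00717 for Ikzf4. On the adjusted p alone, which was 0.00869 to 0.326 for Ikzf1, 0.00202 to 0.143 for Ikzf3 and 0.0156 to 0.411 for Ikzf5, some alternatives fell on the other side of 0.05 from the reported value, and the cause was not tested. With no fold threshold, 3 members, 2183 genes of all tested (against 1019), 2 NuRD subunits and 1 cereblon ligase gene passed, by construction of that rule. Other corepressors gave 1 call with library weights and 0 to 1 with a library left out (Ncor1, without CD4SP replicate 2). Quantile normalization moved the difference in the Ikzf4 share from 3.67 to 3.37 percentage points, that in the Ikzf1 share from -1.57 to -0.136 and that in the Ikzf5 share from 0.609 to 0.231. With a library left out, the Ikzf1 difference was -2.47 (without CD4SP replicate 3) to -1.01 (without CD4SP replicate 1) and the Ikzf5 difference 0.0778 (without CD8SP replicate 2) to 1.26 (without CD8SP replicate 3), all positive for Ikzf5 and negative for Ikzf1. Same-numbered libraries had correlations of 0.0515, -0.0168 and 0.0887 between their deviations from the group means, so the numbers were not taken as pairs. The replicate block gave 2 members called, 997 genes in all, 10 regulatory T cell genes (against 9), and limma adjusted p of 0.111 for Ikzf1, 0.000261 for Ikzf2, 0.0772 for Ikzf3, 0.00219 for Ikzf4 and 0.0904 for Ikzf5. With 3 libraries a group, no share can pass 0.05 in the exact permutation test. Gene-level TPM cannot separate isoforms with and without DNA-binding fingers, and protein was not measured.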
